A study of Caenorhabditis elegans with 4 samples.

Results

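The peaks described here lie in the centre of the X chromosome of Caenorhabditis elegans, in a chromatin immunoprecipitation and sequencing (ChIP-seq) experiment on adult animals. Of the 9214 peaks that the authors deposited for the series as a whole, 9212 lie on nuclear chromosomes and 712 of these on X. The 289 peaks taken here are those on X whose midpoint falls between positions 4429717 and 13289149, the inner 50% of the chromosome's length (8.86 Mb, WormBase WS220 coordinates). The rule that chose them used position alone and no score, width, spacing or overlap with the replicate lists. The stretch itself was picked with earlier results of these data known, so its sparseness is described here and not tested. Just inside the left boundary lay a peak from 4457916 to 4458153 with a score of 17.75, and just outside it one from 4388844 to 4389205 with 28.39. At the right boundary the last peak inside, from 13145002 to 13145453, had a score of 15.18, and the first outside, from 13302155 to 13302337, had 3.21.

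The series holds 4 samples, 2 ChIP samples and 2 samples of input (sheared DNA without immunoprecipitation). All come from hermaphrodites of strain fem-2(b245), genotype fem-2(b245)III, kept at 20 degrees Celsius according to the series' design text and labelled as young adults that have a germline. The gene fem-2 encodes a protein phosphatase of the sex determination pathway, and b245 is known as a temperature-sensitive allele. There is no wild-type strain, so every sample carries the mutation, and the labels do not say whether replicates came from separate cultures. The sample titles name KLE-2 with antibody code SDQ3898, while the antibody record of the same samples names CEC-1 with code SDQ2901, and the peak lists do not show which protein was precipitated.

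KLE-2 is a subunit of condensin II, one of the ring-shaped complexes that compact chromosomes for mitosis and meiosis. C. elegans has a further condensin that gathers on both X chromosomes of hermaphrodites and lowers their transcription, the process called dosage compensation. CEC-1 carries a chromodomain, a fold known for binding methylated histone tails. In the germline X is largely silent, and unlike the autosomes it has no sharp division into repeat-rich arms and gene-dense centre, so the centre of X is here a stretch defined by length. A gene annotation or genome sequence of WS220 was not used here, so peaks are given by position without genes or bases.

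Peaks in the centre of X were sparse. The 289 peaks amounted to 32.6 per Mb (exact 95% Poisson interval 29.0 to 36.6), against 47.7 per Mb on the arms of X (43.3 to 52.5, 423 peaks) and 95.2 per Mb in the inner 50% of the 5 autosomes (92.2 to 98.2, 3928 peaks). The centre of X thus had 0.68 times the density of the arms of X (exact 95% interval 0.59 to 0.80) and 0.34 times that of the autosomal centres (0.30 to 0.39). The 5 autosomal centres taken singly had from 71.3 per Mb on V to 123 per Mb on III, so the sparsest of them was still above the interval of the centre of X. All these intervals cover counting error only. Peaks lie close together and are not independent replicates, and no test was made across the 2 ChIP samples.

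Both ChIP replicates gave the same order of densities when counted on their own lists. Replicate 1 had 23 peaks in the centre of X, or 2.60 per Mb (1.65 to 3.90), against 4.40 on the arms of X and 13.1 in autosomal centres. Replicate 2 had 216 peaks there, or 24.4 per Mb (21.2 to 27.9), against 32.3 on the arms of X and 72.7 in autosomal centres. The centre to arm ratio on X was 0.59 in replicate 1, with an interval from 0.34 to 1.01 that includes equality, and 0.76 in replicate 2 (0.63 to 0.90). The ratio of the centre of X to autosomal centres was 0.20 (0.12 to 0.30) in replicate 1 and 0.34 (0.29 to 0.38) in replicate 2. The number of reads behind each list is unknown, and replicate 1 is the shorter list throughout.

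**Figure D1:**
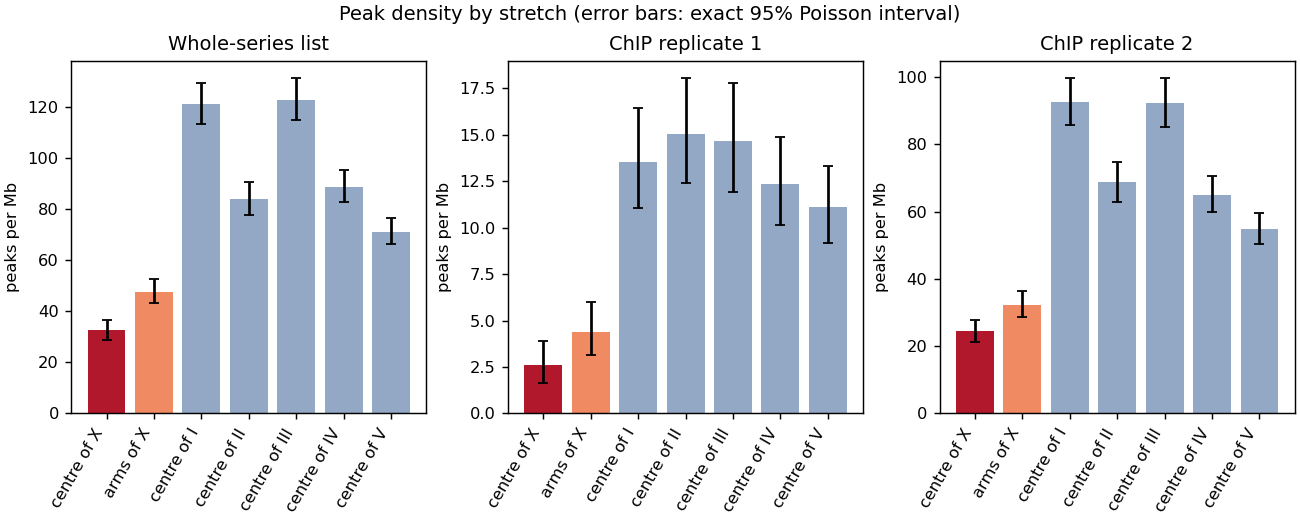
Peaks per Mb in the centre of X, the arms of X and the 5 autosomal centres, for the whole-series list and for each ChIP replicate; bars give the density and error bars the exact 95% Poisson interval. The centre of X is the lowest bar in each panel, with 32.6 peaks per Mb for the whole-series list, 2.60 for replicate 1 and 24.4 for replicate 2.

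Within the stretch the peaks were unevenly spread. Counted in the 8 windows of 1 Mb that lie wholly inside it, the number of peaks ran from 21 between 6 and 7 Mb (exact 95% Poisson interval 13.0 to 32.1) to 49 between 5 and 6 Mb (36.3 to 64.8), with a median of 32. The windows from 5 to 6 Mb and from 7 to 8 Mb, with 49 and 45 peaks, also hold the 2 runs with most peaks that are described below. When peaks less than 2 kb apart were joined into sites, the same windows held 33 and 24 sites, and the window from 6 to 7 Mb held 16. In all, the 289 peaks made up 213 sites (24.0 per Mb), of which 184 were single peaks and 29 held at least 2.

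Long stretches of the centre of X held no peak. Gaps between neighbouring peaks, measured from the end of one to the start of the next, had a median of 13.3 kb (interquartile range 1.38 to 40.0 kb), against 10.7 kb on the arms of X (1.88 to 28.1 kb) and 3.82 kb in autosomal centres (0.821 to 13.0 kb). Of the 288 gaps in the centre of X, 24 were longer than 100 kb (8.33%), compared with 13 of 421 on the arms of X (3.09%) and 7 of 3923 in autosomal centres (0.18%). Those 24 gaps added up to 3.24 Mb, or 36.6% of the stretch, against 17.6% of the arms of X and 2.14% of the autosomal centres. On all nuclear chromosomes together there were 58 gaps of that length, and 41.4% of them lay in the centre of X, which makes up 8.84% of the nuclear length.

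The longest gap, from 6378704 to 6600115, extended over 221 kb and was the longest on any nuclear chromosome in the list. It was followed by gaps of 195 kb (from 8036593 to 8231782), 184 kb (12670672 to 12854993), 168 kb (5518599 to 5686134) and 160 kb (7501205 to 7661581). A gap can hold a replicate peak only where that peak lies on no whole-series peak, as 5 replicate 1 peaks and 39 replicate 2 peaks of the stretch did. Of the 5 replicate 1 peaks none lay inside a gap over 100 kb. Of the 39 replicate 2 peaks 12 did, in gaps that make up 36.6% of the stretch, and 3 of these were in the gap of 195 kb. The peak-free span from 13145453 to 13302155 crosses the right boundary and was not counted as a gap. Others of the 39 lay there, starting at 13168880, 13225018, 13251139 and 13264350. The 12 therefore leave out peaks in that span.

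**Figure D2:**
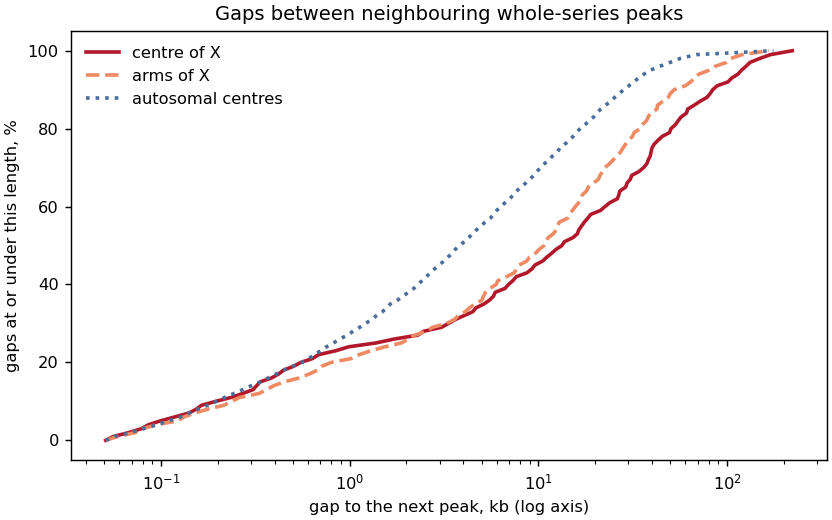
Cumulative share of gaps (y axis, %) at or under a given length (x axis, kb, logarithmic) for neighbouring whole-series peaks in the centre of X, on the arms of X and in autosomal centres. Beyond a few kb the curve of the centre of X lies to the right of the other curves, with a median of 13.3 kb against 10.7 kb and 3.82 kb, and it ends at 221 kb.

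At the short end of the scale the picture was different. Of the gaps in the centre of X, 76 of 288 were under 2 kb (26.4%, exact 95% interval 21.4 to 31.9%), almost the same share as on the arms of X (25.9%, 21.8 to 30.4%) and below that of autosomal centres (37.8%, 36.2 to 39.3%). The share in the centre of X depended on the peaks counted. It was 14.2% for whole-series peaks in at least 1 replicate and 6.56% for those with scores above the nuclear median. In the list of replicate 1 it was 9.09% and in that of replicate 2 9.77%. The peak caller was MACS for the replicate lists and MACS v2 for the whole-series list. Median nuclear peak widths were 1220.5 bp (replicate 1), 987 bp (replicate 2) and 324 bp (whole series).

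Peak scores in the centre of X were mostly low. The score is the value the authors' peak caller gave each peak, on a scale that is not stated, and it serves here to rank peaks within a list. Whole-series scores ran from 1.32 to 210.3 with a median of 8.30 (interquartile range 4.72 to 15.4), and 168 of the 289 peaks (58.1%) scored under 10. The median was 8.08 on the arms of X, 12.5 in autosomal centres and 9.81 over all nuclear peaks. The peak with 1.32, from 10361317 to 10361498, had the lowest score of all 712 peaks on X.

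High scores were few. The 10% of nuclear peaks with the highest scores began at 86.4, and 4 peaks in the centre of X belonged to them (1.38%, exact 95% interval 0.38 to 3.51%). On the arms of X the number was 22 of 423 (5.20%, 3.29 to 7.77%), and in autosomal centres 480 of 3928 (12.2%, 11.2 to 13.3%). The upper quartile of scores was 15.4 in the centre of X, 17.0 on the arms of X and 43.8 in autosomal centres. Medians on X were thus close to each other, while the share of peaks at the top of the range was lower in the centre than on the arms, with intervals that overlap slightly.

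The peaks were also narrow. Their median width was 269 bp (interquartile range 202 to 368 bp), against 262 bp on the arms of X, 351 bp in autosomal centres and 324 bp over all nuclear peaks. In the centre of X 172 of 289 (59.5%) were under 300 bp wide and 13 (4.50%) were at least 1 kb, compared with 33 of 423 (7.80%) on the arms of X and 247 of 3928 (6.29%) in autosomal centres. The peaks covered 108 kb or 1.22% of the stretch, against 2.11% of the arms of X and 4.43% of the autosomal centres. Across the 289 peaks, which are not independent, higher-scored peaks tended to be wider (Spearman's rho = 0.42, a description without a test).

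Of the peaks in the centre of X, 3 stood far above the rest in score, and both replicates contained them. The highest, from 9605073 to 9607859, had a whole-series score of 210.3, a replicate 1 score of 942 and a replicate 2 score of 3100. It was 2787 bp wide and ranked 3 on X and 74 among all nuclear peaks. The next, from 12520852 to 12522135, scored 206.32, with 302 for its replicate 1 peak and 3100 for its replicate 2 peak.

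The third, from 9007067 to 9009107, scored 186.2, with 1208 for its replicate 1 peak and 3100 for its replicate 2 peak. A score of exactly 3100 is the most frequent value of both replicate lists (45 peaks of replicate 1 and 1011 of replicate 2). Peaks with it cannot be ranked among themselves, nor safely against larger values, which reach 3202 in replicate 1 and 3233 in replicate 2. Each of these 3 peaks had a small companion at lower coordinates, at most 303 bp away, with whole-series scores of 6.75, 4.32 and 15.42 in the order given. The same replicate 2 peak overlapped peak and companion, some of the companions only in part. These companions take the replicate 2 score of 3100 from the wide peak they share and appear at the top of the plot of replicate 2 scores.

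A pair of neighbouring peaks 577 bp apart formed the next strong site. The peak from 5227655 to 5228822 scored 106.09 and lay on a replicate 2 peak with 3100 and on no replicate 1 peak. Its neighbour from 5229400 to 5230625 scored 73.44, lay on another replicate 2 peak with 3100 and on a replicate 1 peak with 95.7. The site was thus among the highest scores of replicate 2. Its replicate 1 score lay slightly below the median of 98.8 for the 23 replicate 1 peaks in the stretch. Within 2 kb of the pair followed low peaks from 5232241 to 5232633 (score 3.57) and from 5232734 to 5232924 (1.94), in neither replicate. Joined over gaps under 2 kb, the pair and these low peaks form a group of 4.

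The widest peak in the centre of X, from 12663067 to 12668076, extended over 5010 bp and was the single place in the stretch with a score of 3100 in both replicates. Replicate 1 had a peak of 5445 bp and replicate 2 one of 5734 bp at the same position, so all 3 lists drew a domain of similar length. Its whole-series score of 77.82 was the same as that of a peak of 619 bp, from 4996240 to 4996858, which had a score of 664 in replicate 2 and no replicate 1 peak.

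The other peaks at least 2 kb wide were the highest-scored one (2787 bp), the third of the strong peaks (2041 bp) and one from 5913734 to 5915835 (2102 bp). The last of these scored 12.18, lay on a replicate 1 peak of 3000 bp with a score of 209, and had no replicate 2 peak. The fifth widest peak, from 11886620 to 11887959 (1340 bp, score 8.85), was in neither replicate list. Among the 13 peaks of at least 1 kb, 5 were in both replicates, 3 in replicate 1 alone, 1 in replicate 2 alone and 4 in neither, and 7 scored under 20.

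The remaining peaks among the 10 with the highest scores were narrow and belonged to replicate 2. They lay from 6296229 to 6296747 (score 67.21, replicate 2 score 2614), from 11093847 to 11094293 (61.22, with 2652) and from 7823041 to 7823480 (57.23, with 2476). None of these 3 had a replicate 1 peak, and their widths were 519, 447 and 440 bp. Of the 15 peaks with a score of at least 50, replicate 2 contained all 15 and replicate 1 contained 6. The 6 in both were at least 841 bp wide, and the 9 in replicate 2 alone had a median width of 447 bp.

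The next comparison asked which peaks of the centre of X the replicates contained, counting any overlap of at least 1 bp. Replicate 2 overlapped 188 of the 289 peaks (65.1%, exact 95% interval 59.2 to 70.5%), where 75.3% of all nuclear whole-series peaks were overlapped. Replicate 1 overlapped 32 (11.1%, 7.70 to 15.3%), where 15.8% of all nuclear peaks were. Both shares lay below those of autosomal centres, which were 81.3% (80.0 to 82.5%) for replicate 2 and 17.3% (16.2 to 18.6%) for replicate 1, and were close to those of the arms of X, 64.1% and 12.8%.

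Divided by class, 22 peaks in the centre of X were overlapped by both replicates (7.61%, 4.83 to 11.3%), against 14.3% of all nuclear peaks. Another 166 were overlapped by replicate 2 alone (57.4%, 51.5 to 63.2%), against 61.0% of all nuclear peaks, and 10 by replicate 1 alone (3.46%, 1.67 to 6.27%), against 1.49%. The remaining 91 were in neither (31.5%, 26.2 to 37.2%), against 23.2% of all nuclear peaks. Autosomal centres had 16.2% of their peaks in both and 17.6% in neither. The arms of X had 11.1% in both (8.28 to 14.5%) and 34.3% in neither (29.8 to 39.0%). The share in neither was 40.3% (34.0 to 46.9%) on the left arm and 26.8% (20.7 to 33.7%) on the right arm. The high share in neither was thus not particular to the centre of X.

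The classes differed in strength and width. Peaks in both replicates had a median score of 13.8 and a median width of 602 bp, those in replicate 2 alone 12.5 and 254 bp, those in replicate 1 alone 8.56 and 795 bp, and those in neither 5.07 and 268 bp. In the class shared by both replicates the scores formed no single group, since 6 of the 22 scored at least 50 while the lower quartile was 5.04. Over all nuclear peaks the shared class had a median score of 78.8, so shared peaks in the centre of X were for the most part lower ones. On the arms of X the median of the 47 shared peaks was 42.0.

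**Figure D3:**
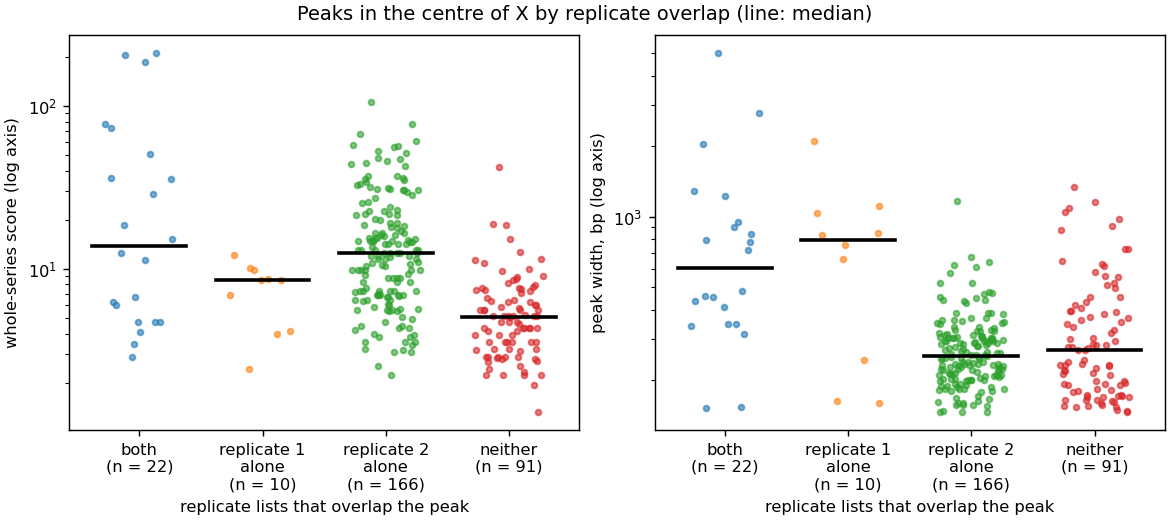
Whole-series score (left, logarithmic axis) and width in bp (right, logarithmic axis) of the 289 peaks in the centre of X, grouped by the replicate lists that overlap them; each point is a peak and the line is the median. The 22 peaks in both replicates reach 210.3 in score and 5010 bp in width, and the 91 in neither have the lowest median score, 5.07.

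In the centre of X, as elsewhere, a larger share of the higher-scored peaks was overlapped. Among peaks whose scores fell in the lowest 25% of the nuclear list, replicate 2 overlapped 26 of 74 (35.1%, exact 95% interval 24.4 to 47.1%), against 34.5% on the arms of X and 47.3% of all nuclear peaks. In the next group it was 51 of 92 (55.4%, 44.7 to 65.8%), against 53.2% and 63.6%, and in the third 81 of 92 (88.0%, 79.6 to 93.9%), against 86.9% and 90.9%. In the highest 25% it was 30 of 31 (96.8%, 83.3 to 99.9%), against 100% and 99.8%.

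The centre of X differed from the nuclear list in its mix of scores and in the share overlapped within each group. Fewer of its peaks were in the group with the highest scores (10.7%, by definition about 25% of the nuclear list), and in all 4 groups the share overlapped was under that of all nuclear peaks. In the lowest group the share of all nuclear peaks lay just above the interval of the centre of X and in the other 3 groups inside it, and the difference was not tested.

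**Figure D4:**
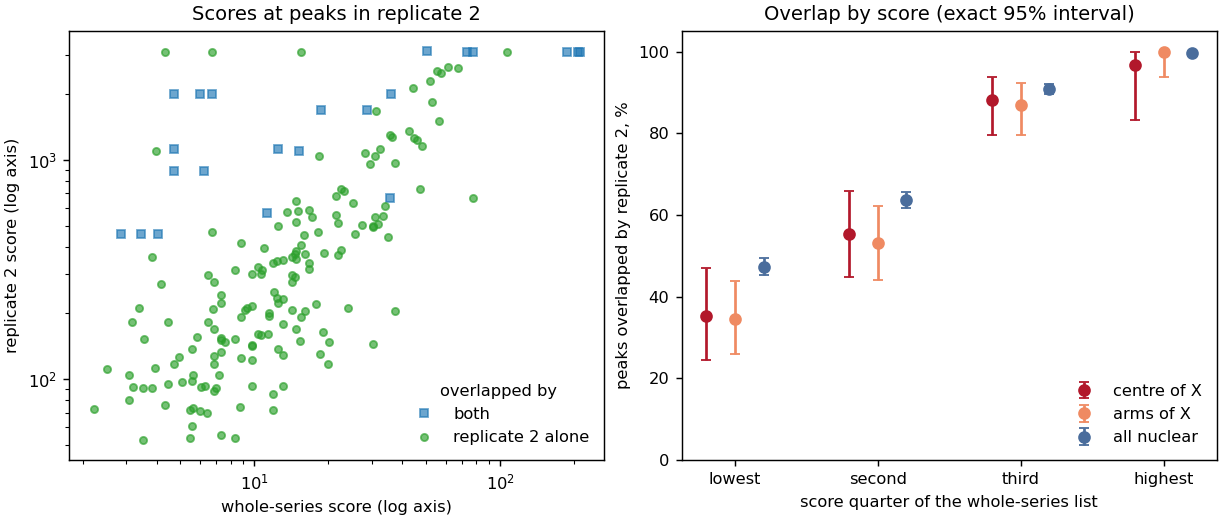
Left, replicate 2 score against whole-series score (both axes logarithmic) for the 188 peaks in the centre of X that replicate 2 overlaps. Right, percentage of peaks overlapped by replicate 2 in each 25% of whole-series scores, for the centre of X, the arms of X and all nuclear peaks, with exact 95% intervals; in the centre of X the share is 35.1% in the lowest group and 96.8% in the highest.

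Where replicate 2 overlapped a peak, it did so at nearly the same midpoint. The 188 peaks lay on 177 replicate 2 peaks, 184 of them wholly inside (97.9%), and the midpoints were a median of 38 bp apart (interquartile range 19.9 to 74.6 bp). Of the 188, 153 (81.4%) had midpoints within 100 bp of each other. For replicate 1 the 32 peaks lay on 18 replicate 1 peaks, with a median distance of 382 bp (145 to 659 bp), and 7 of 32 were within 100 bp. Replicate 1 peaks in the stretch were wider (median 1542 bp) than those of replicate 2 (767 bp), and 6 of them covered at least 2 whole-series peaks each.

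The rank of a peak's whole-series score followed its replicate 2 score more closely than its replicate 1 score, a difference that was not tested. Taking the highest whole-series peak on each replicate peak, Spearman's rho between whole-series and replicate score was 0.79 over 177 replicate 2 peaks and 0.14 over 18 replicate 1 peaks. These are descriptions across peaks of the same libraries. The number of replicate 1 peaks is small, and the sources used here do not say whether the whole-series list was called from both replicates.

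Seen from the replicates, some peaks of the stretch were missing from the whole-series list. Of the 216 replicate 2 peaks, 177 (81.9%, 76.2 to 86.8%) lay on a whole-series peak, where 85.8% of all replicate 2 peaks did. The 39 without one were weak, with a median score of 75.9 and a maximum of 280, compared with a median of 290 for the rest. Of the 23 replicate 1 peaks 18 lay on a whole-series peak (78.3%, 56.3 to 92.5%), where 93.7% of all replicate 1 peaks did. The 5 without one scored 53.8 to 96.7. The lowest scores anywhere in the replicate lists were 50.03 in replicate 1 and 50.01 in replicate 2.

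In the centre of X the replicates shared a smaller part of their peaks than over the genome, a difference that was not tested. Of the 23 replicate 1 peaks 16 lay on a replicate 2 peak (69.6%, 47.1 to 86.8%), where 90.8% of all replicate 1 peaks did, and on the arms of X it was 35 of 39 (89.7%, 75.8 to 97.1%). In the other direction 17 of 216 replicate 2 peaks lay on a replicate 1 peak (7.87%, 4.65 to 12.3%), where 16.3% did over the genome. On the arms of X it was 36 of 286 (12.6%, 8.97 to 17.0%), with an interval that overlaps that of the centre. Replicate scores in the stretch were low as well. The median was 98.8 in replicate 1 (148 over the whole list) and 205 in replicate 2 (457 over the whole list). On the arms of X it was 308 in replicate 1, above the whole list, and 271 in replicate 2, below it.

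By replicate 1 score the leading sites of the stretch were partly others than by whole-series score. After the domain of 5 kb and the peaks with whole-series scores of 186.2 and 210.3, replicate 1 placed a peak from 7952498 to 7956500 (score 697) and one from 10338624 to 10340280 (score 397). At these positions the whole-series scores were at most 6.71 and 18.62. In replicate 2 the largest value, 3137, belonged to a peak from 10568079 to 10569391. The whole-series score there was 50.55 and the replicate 1 score 88.5. Another 6 peaks had 3100, all of them at the sites described above. Since 1011 replicate 2 peaks share the value 3100, whether 3137 ranks above it cannot be told.

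The tight groups of peaks were of a few distinct kinds. Runs, here 4 or more successive peaks less than 2 kb apart, numbered 8 and held 58 peaks (20.1% of the stretch's peaks, against 12.3% on the arms of X and 23.4% of all nuclear peaks). The median score in the runs was 5.13 and the median width 370 bp, against 9.81 and 251 bp for the other 231 peaks. No replicate overlapped 39 of the 58 peaks (67.2%), and none overlapped 52 of the 231 others (22.5%). Over all nuclear peaks the corresponding shares were 33.3% in runs and 20.2% outside them. On the arms of X they were 48.1% in runs and 32.3% outside them.

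The run with most peaks held 16, over 9.41 kb from 7351743 to 7361151, and covered 56.4% of that sequence. Every peak in it scored between 2.22 and 5.55, and no peak of either replicate lay within 1.5 kb of it. A run of 8 peaks from 10361317 to 10368966 (scores 1.32 to 18.84), one of 6 from 9185104 to 9189101 (2.32 to 42.26) and one of 5 from 11975759 to 11978577 (2.86 to 8.57) likewise had no replicate peak. Together these 4 runs held 35 of the 91 peaks in neither replicate.

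The run of 6 just given contained the highest-scored peak of the stretch that neither replicate overlapped, from 9188605 to 9189101 with a score of 42.26. Of the 2303 nuclear peaks in the highest 25% of scores, 5 had no replicate 2 peak, and this was one of them. The next in the class without a replicate peak scored 18.84 (10368057 to 10368966), 18.61 (9185913 to 9187002), 15.29 (12607579 to 12607880) and 12.75 (9438661 to 9438824). The first 2 of these also belonged to the runs of 8 and 6 peaks.

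A different kind of run was seen in replicate 1 alone. The 9 peaks from 5045417 to 5053949 had scores of 2.41 to 10.14, and 8 of them lay on 2 adjoining replicate 1 peaks, one from 5045137 to 5047444 (score 125) and one from 5047549 to 5053120 (5572 bp, score 342). Replicate 2 had no peak there. These 8 peaks, with the pair from 5913350 to 5915835 under a replicate 1 peak of 3000 bp, made up the whole class of 10 peaks in replicate 1 alone, so that class came from 2 places on the chromosome and not from 10.

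In the run of 6 peaks from 7951467 to 7956327 both replicates covered every peak. Replicate 1 had peaks with scores of 697 and 59.4 there, and replicate 2 had 1999 and 885. The first whole-series peak of the run scored 36.08 and the other 5 scored 4.72 to 6.71, so a stretch that both replicates marked as broad appeared in the whole-series list as a row of low peaks. The run of 4 from 8747820 to 8749346 was of the same kind, with 3 peaks of 2.86 to 4.06 under a replicate 1 peak of 1561 bp (score 134) and a replicate 2 peak of 1400 bp (score 457). Shared peaks in those 2 runs numbered 9 of the 22 in the class. The other run of 4, from 5227655 to 5232924, holds the strong pair described above and had scores of 1.94 to 106.09. The replicate lists were called with MACS and the whole-series list with MACS v2, so scores and widths are not directly comparable between them.

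**Figure D5:**
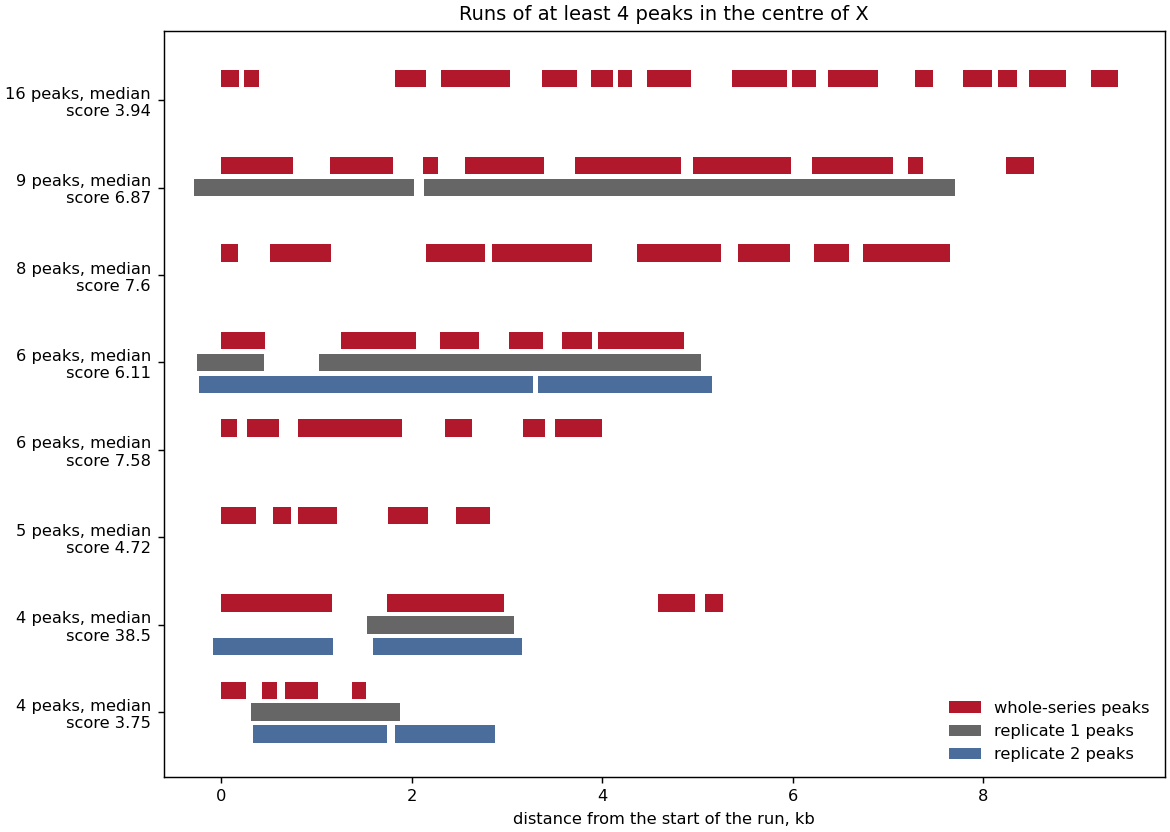
The 8 runs of at least 4 whole-series peaks in the centre of X, drawn by distance in kb from the start of each run, with whole-series peaks above and peaks of replicates 1 and 2 below. The runs of 16, 8 and 5 peaks and the lower run of 6 have no replicate peak. In the run of 9, 8 peaks lie on 2 replicate 1 peaks, and the upper run of 6 lies under peaks of both replicates.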

How the data were processed

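The deposited data were 3 lists of peaks. Per the file headers their positions refer to WormBase WS220, which the submitters' processing notes call ce10, and the notes name BWA as aligner. For each peak the authors deposited start, end and the score their caller assigned (MACS for the replicates, MACS v2 for the whole series, per the file contents). Thresholds, the input used, treatment of duplicates and pooling are not given in the sources used here, and read depth is unknown. Values of the input samples were not analysed here. Mitochondrial peaks were left out.

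Members, settings and comparisons were chosen with earlier results of these data known. WS220 chromosome lengths were entered as a setting. Peaks were assigned by midpoint to the inner 50% of a chromosome (centre) or the rest (arms). Overlap meant at least 1 bp, and where several replicate peaks overlapped, the highest score was taken. Shares and density ratios have exact (Clopper-Pearson) and densities exact Poisson 95% intervals, which cover counting error only, and medians were compared between settings with exact binomial intervals of ranks. No p-value was computed, since peaks are not replicates and 2 ChIP lists allow no test across samples. Peaks named were the 10 highest-scored, the 5 widest, those of 2 kb or more, the 5 highest-scored of each class, the 5 longest gaps, the runs of at least 4 peaks and the 5 highest-scored of each replicate; others named were chosen after their values were seen. Python 3.11.15, numpy 2.4.6, pandas 2.3.3 and scipy 1.17.1 were used, and the overlap and spacing code was tested on simulated peaks.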

Additional observations from a re-analysis of the deposited data

How the results depend on the processing

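No paired analysis was possible because the groups that share replicate numbers are ChIP and input, the input samples have no values here to pair with, and the results come from no test. Within each ChIP replicate the centre of X was set against the arms of X, with density ratios of 0.59 and 0.76. Of the alternatives tried, 22 of 49 left the value inside the interval of the value reported, and the others moved it. The longest gap is a single value without an interval, so for it any different value counted as moved. No ratio of densities crossed 1. With peaks limited to scores above the nuclear median, which leaves fewer peaks by construction, the centre of X had 13.9 peaks per Mb, 0.26 times the density of autosomal centres, a median score of 18.3, a median width of 303 bp, 7.32% of peaks in neither replicate, a median gap of 50.3 kb, a longest gap of 305 kb and 6.56% of gaps under 2 kb. With peaks limited to those in at least 1 replicate the values were 22.3 per Mb, 0.28 times, a median score of 12.0, a median gap of 29.3 kb, a longest gap of 228 kb and 14.2% of gaps under 2 kb. Measured between midpoints the longest gap was 222 kb. Counting from the list of a single replicate gave 2.60 to 24.4 peaks per Mb, 0.59 to 0.76 times the density of the arms of X, 0.20 to 0.34 times that of autosomal centres, a median width of 767 to 1542 bp, a median gap of 25.9 to 212 kb, a longest gap of 227 to 1207 kb and 9.09 to 9.77% of gaps under 2 kb. The single-replicate lists were called with MACS and the whole-series list with MACS v2, so caller and list changed together. With 1 replicate left out, 34.9 to 88.9% of the whole-series peaks were without overlap, the higher value with replicate 1 as the remaining list. Drawing the centre as the middle one of 3 equal parts of the chromosome left the longest gap the same and the other results inside their intervals. Requiring an overlap of at least 50% of the peak left the shares in both and in neither replicate inside theirs. Depth is unknown, so a peak missing from replicate 1 cannot be told apart from one below its threshold.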

Other observations

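Many peaks in the centre of X shared a score. The 289 peaks had 180 different scores, 159 peaks shared their score with at least one other, and 4.32, the most frequent value among nuclear peaks with 172 of them, occurred 8 times here, as did 5.55. No peak in the centre of X was narrower than 146 bp and no gap was shorter than 51 bp, the same limits as on the arms of X and in autosomal centres.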
